A study of Homo sapiens with 6 samples.

Results

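The 60 genes described here lie among others on the short arm of human chromosome 3, in bands 3p22 to 3p21, between GTDC2 and SMIM4. They were chosen by name because resistant cells held less of their RNA than parental cells, so every resistant-against-parental value of a member is a description and carries no test. All 60 names were found among the 55401 gene names in the files, and 58 of them reached a mean of 1 TPM (transcripts per 1000000, a level per transcript length) in at least 1 group and were tested. NBEAL2 and P4HTM did not reach it. The order of the genes was taken from RefSeq on GRCh38.p14, while the expression files rest on hg19.

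The cells were RMS13, an alveolar rhabdomyosarcoma line, and its descendant RMS13-R, which resists MAL3-101, a small-molecule inhibitor of HSP70 chaperones. The 3 groups held 2 libraries each, called A and B: parental cells in DMSO, the vehicle; parental cells in 10 µM MAL3-101; and resistant cells in 10 µM MAL3-101. Each exposure lasted 9 h. The titles of the DMSO samples also carry the name of the drug, and their descriptions, which give DMSO alone, were followed; every value against DMSO rests on that reading. RMS13-R in DMSO was not analysed here, so the line and its response to the drug cannot be told apart. No label says that A and B were separate cultures or whether RMS13-R is 1 clone, so a p-value reflects no more than how far such libraries spread.

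The label of a muscle-lineage tumour was checked against 8 myogenic markers. All but PAX7 reached 1 TPM in some library. The sum of the 8 was 2269 to 2369 TPM in DMSO and 2026 to 2037 TPM in parental cells with the drug. In resistant cells it was 1976 to 2005 TPM. Single markers changed in opposite directions behind this sum. In the same order of groups, MYOD1 averaged 809, 716 and 485 TPM and FGFR4 610, 400 and 205 TPM. MYOG averaged 421, 470 and 679 TPM and DES 369, 319 and 475 TPM. Of 9 markers of epithelial, blood or vessel cells found in the files, only EPCAM and LYZ reached 1 TPM. Their sum was 5.92 to 6.29 TPM in DMSO, 8.43 to 9.04 TPM in parental cells with the drug and 1.63 to 1.81 TPM in resistant cells, and none was at 0 in every library. EPCAM averaged 3.53, 5.85 and 0.21 TPM in these groups. Its part in the values below was not tested. The depth behind a TPM value is unknown.

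Chromosome band 3p21 is among the more gene-dense stretches of the human genome, and its genes belong to many unrelated pathways. SETD2, BAP1 and RASSF1 are known as tumour suppressors in several cancers, RHOA and GNAI2 carry signals from cell-surface receptors, and DAG1 and LAMB2 link muscle fibres to their surroundings. Many of the members are expressed in nearly all tissues.

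The members as a group held less RNA in resistant cells. Their TPM summed to 3349.7 and 3383 in the DMSO libraries, to 3024 and 3054 in the parental MAL3-101 libraries and to 1770 and 1795 in the resistant libraries. The resistant sum was thus 58.7% of that of parental cells with the drug and 53.0% of that with DMSO. The SD between the 2 libraries of a group was 17.7 to 23.3 TPM, and no resistant library came near a parental one. In bulk RNA, a lower level in each cell and fewer cells with that RNA cannot be told apart.

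Gene by gene, the median member stood in resistant cells at 53.0% of its mean over the 4 parental libraries, with quartiles of 45.4% and 62.3%. Over all tested genes with a parental mean of 1 TPM or more the median was 91.6%, with quartiles of 71.2% and 114%. Of the 58 members, 51 lay between 40% and 70%. Only 5 lay lower, namely GNAI2 at 34.9%, TRAIP at 36.1%, USP4 at 37.7%, CDC25A at 38.1% and NCKIPSD at 39.8%. Only 2 lay higher, TCTA at 70.5% and NT5DC2 at 93.4%. Both resistant libraries were below all 4 parental libraries for 57 of 58 members, where 32.5% of all tested genes were, and NT5DC2 was the exception.

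**Figure D1:**
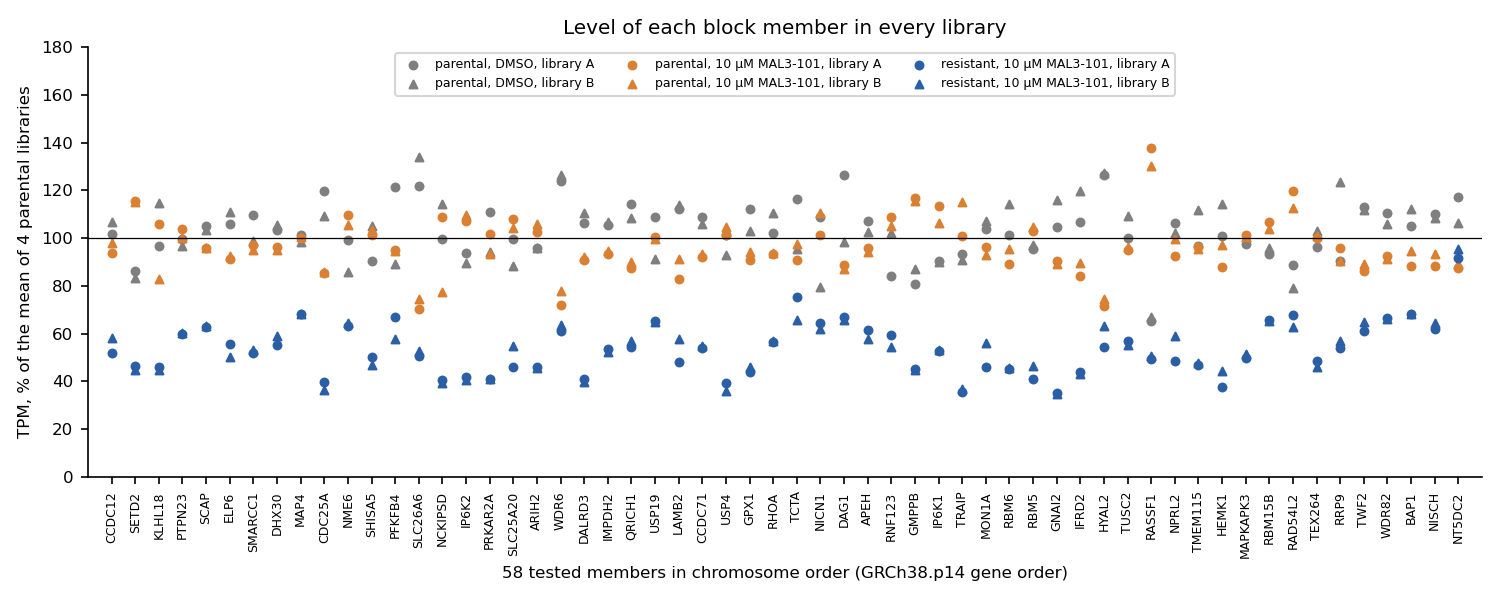
Level of each of the 58 tested members in every library, as a percentage of its mean over the 4 parental libraries, in chromosome order from CCDC12 to NT5DC2 (grey, parental DMSO; orange, parental MAL3-101; blue, resistant MAL3-101; circles, library A; triangles, library B). The resistant points form a band with a median of 53.0%, below all parental points for every member but NT5DC2 at the right end.

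On the log2(TPM + 1) scale, which understates the change of weakly expressed genes, the median fold change of the members was -0.78 in resistant against parental cells, both with MAL3-101, and -0.90 against DMSO. The corresponding medians over all 15148 tested genes were -0.10 and -0.06. With limma at an adjusted p under 0.05, 56 of 58 members were called lower in the first comparison and 58 of 58 in the second, beside 34.8% and 29.7% of all tested genes; since the members were picked for this difference, nothing is read from those counts. The 2 members not called in the first were PFKFB4 and NT5DC2. The comparisons share the resistant libraries. Scaling the TPM by the upper quartile moved the median of all genes by 0.11 in the first comparison and turned its share of lower calls over all genes from 62.0% to 49.4% (50.8% with median-ratio scaling). Relative to all genes, the members' median was -0.68 as deposited and -0.66 with either scaling.

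The 5 members with the largest differences between resistant and parental cells, both with the drug, came from several pathways. TRAIP, a ubiquitin ligase that acts at stalled replication forks, stood at 25.5 and 29.1 TPM in the parental MAL3-101 libraries A and B, 9.02 and 9.25 TPM in the resistant ones and 23.6 and 22.9 TPM in DMSO, a log2 fold change of -1.48 with the drug. RASSF1, a scaffold of the Hippo pathway, stood at 51.3 and 48.5 TPM in parental cells with the drug, 18.3 and 18.8 TPM in resistant cells and 24.34 and 25 TPM in DMSO (-1.38). USP4, a deubiquitinase, stood at 27.6 and 28.5 TPM in parental cells with the drug, 10.7 and 9.83 TPM in resistant cells and 27.5 and 25.3 TPM in DMSO (-1.37). In all 3, the resistant libraries lay below every parental library, and RASSF1 differed from the others in being far higher in parental cells with the drug than without it. IP6K2, which makes inositol pyrophosphates, stood at 98.5 and 101 TPM in parental cells with the drug, 38.6 and 37.4 TPM in resistant cells and 86.1 and 82.4 TPM in DMSO (-1.37). GNAI2, the inhibitory G protein alpha subunit 2, stood at 80.2 and 79.3 TPM in parental cells with the drug, 31.0 and 31.0 TPM in resistant cells and 92.8 and 103 TPM in DMSO (-1.34). The resistant libraries of GNAI2 were nearly equal, and its DMSO libraries were the highest of the 6.

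Of the 5 members with the smallest differences, 4 were also called lower by limma in parental cells with the drug than without it, and TCTA was not. Over all tested genes, 18.2% were called lower there. Both comparisons use the parental MAL3-101 libraries, and a low level in them makes the first difference small and the second negative. Nothing is therefore read from this count. NT5DC2, a member of the nucleotidase family, stood at 152 and 155 TPM in parental cells with the drug, 159 and 166 TPM in resistant cells and 204 and 185 TPM in DMSO. WDR6, a partner of a tRNA methyltransferase, stood at 59.5 and 64.3 TPM in parental cells with the drug, 50.3 and 52.4 TPM in resistant cells and 102 and 105 TPM in DMSO. HYAL2, a hyaluronidase of the cell surface, stood at 24.2 and 25.3 TPM in parental cells with the drug, 18.4 and 21.4 TPM in resistant cells and 42.8 and 43.1 TPM in DMSO. For these 3, the step from DMSO to the drug in parental cells was larger than the step from there to resistant cells. The other two were TCTA, at 14.5 and 15.5 TPM in parental cells with the drug, 12.0 and 10.5 TPM in resistant cells and 18.5 and 15.2 TPM in DMSO, and DAG1, the dystroglycan precursor, at 38.0 and 37.2 TPM in parental cells with the drug, 28.7 and 28.2 TPM in resistant cells and 54.2 and 42.1 TPM in DMSO. The log2 fold changes of the 5 between resistant and parental cells with the drug were 0.08, -0.26, -0.31, -0.39 and -0.39. Against DMSO, WDR6 (-0.996) and HYAL2 (-1.08) lay close to or beyond the members' median of -0.90.

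The windows around the start sites of the members with the 3 largest and the 2 smallest of these differences are printed to show what sequence the extremes of the block carry. They come from RefSeq on GRCh38.p14, run from 250 bases before to 50 after 1 annotated start per gene, and are written 5′ to 3′ on the gene's own strand. TRAIP lies at chr3:49856515-49856814 on the minus strand, RASSF1 at chr3:50337401-50337700 on the minus strand, USP4 at chr3:49340004-49340303 on the minus strand, WDR6 at chr3:49007141-49007440 on the plus strand and NT5DC2 at chr3:52534978-52535277 on the minus strand. Capitals mark 3 motifs on either strand: the SP/KLF GC box (GGGCGG), the CCAAT box (CCAAT) and the ETS motif (CCGGAAG).
TRAIP: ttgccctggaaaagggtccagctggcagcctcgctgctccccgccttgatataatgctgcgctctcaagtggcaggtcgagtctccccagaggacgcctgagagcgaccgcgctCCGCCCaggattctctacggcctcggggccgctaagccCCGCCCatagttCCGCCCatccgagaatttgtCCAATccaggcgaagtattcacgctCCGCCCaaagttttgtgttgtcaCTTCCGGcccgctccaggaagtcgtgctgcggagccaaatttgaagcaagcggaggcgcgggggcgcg
RASSF1: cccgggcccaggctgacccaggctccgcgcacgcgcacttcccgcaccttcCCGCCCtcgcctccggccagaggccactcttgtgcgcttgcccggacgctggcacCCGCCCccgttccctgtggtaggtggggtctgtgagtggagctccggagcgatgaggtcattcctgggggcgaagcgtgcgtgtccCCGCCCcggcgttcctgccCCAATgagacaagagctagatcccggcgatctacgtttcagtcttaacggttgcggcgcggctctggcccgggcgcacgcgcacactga
USP4: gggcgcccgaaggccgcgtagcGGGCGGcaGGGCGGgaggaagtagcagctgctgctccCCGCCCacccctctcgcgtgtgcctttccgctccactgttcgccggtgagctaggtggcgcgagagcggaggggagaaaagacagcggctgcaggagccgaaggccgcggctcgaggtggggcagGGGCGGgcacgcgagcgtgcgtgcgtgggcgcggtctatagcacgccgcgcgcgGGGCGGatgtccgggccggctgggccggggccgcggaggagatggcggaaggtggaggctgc
WDR6: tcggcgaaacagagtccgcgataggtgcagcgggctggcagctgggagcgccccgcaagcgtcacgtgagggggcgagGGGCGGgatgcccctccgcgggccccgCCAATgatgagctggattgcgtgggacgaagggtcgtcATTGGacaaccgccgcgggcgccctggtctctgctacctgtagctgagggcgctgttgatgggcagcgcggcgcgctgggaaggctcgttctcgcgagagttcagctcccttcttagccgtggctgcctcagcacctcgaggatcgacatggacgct
NT5DC2: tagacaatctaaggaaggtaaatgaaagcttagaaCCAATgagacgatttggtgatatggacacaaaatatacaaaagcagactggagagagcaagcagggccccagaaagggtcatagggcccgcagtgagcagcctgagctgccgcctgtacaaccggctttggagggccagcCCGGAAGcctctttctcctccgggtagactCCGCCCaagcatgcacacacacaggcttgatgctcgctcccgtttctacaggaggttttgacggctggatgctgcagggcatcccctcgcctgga

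These windows were settled on after the matches were known. Of the 5, USP4 held only GC boxes, 5 of them, while TRAIP, with the largest difference, and NT5DC2, with the smallest, each held all 3 motifs. The window of GNAI2, the fifth of the members with the largest differences, held none of the 3. Promoter windows were found for 55 of the 60 members and for 10403 tested genes. The GC box was in 78.2% of the members' windows and 69.9% of all, the CCAAT box in 38.2% and 37.3%, and the ETS motif in 30.9% and 19.6%. A full cyclic AMP response element (TGACGTCA) was in 1.8% of the members' windows and 3.4% of all. The ATF4/CHOP element (TGATGNAAN) and the heat shock element (GAA, TTC and GAA, 2 bases apart) were in 0 of 55 windows, and in 1.7% and 0.31% of all. The median GC content was 67.3% in members and 65.3% over all tested genes, with a median of 28 and 26 CpG dinucleotides. A match is a description of the letters and says nothing about which factor binds there.

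Chromatin regulators made up 6 members. SETD2, the enzyme that trimethylates lysine 36 of histone H3, stood at 37.1 and 37.0 TPM in parental cells with the drug, 14.9 and 14.3 TPM in resistant cells and 27.7 and 26.7 TPM in DMSO. SMARCC1, a core subunit of the SWI/SNF remodelling complex, stood at 83.3 and 81.7 TPM in parental cells with the drug, 44.5 and 45.8 TPM in resistant cells and 94.2 and 84.9 TPM in DMSO. BAP1, which removes ubiquitin from histone H2A, stood at 66.4 and 71.2 TPM in parental cells with the drug, 51.5 and 51.3 TPM in resistant cells and 79.1 and 84.6 TPM in DMSO. Resistant and parental libraries did not overlap in any of the 3, and the fold difference was widest in SETD2 and narrowest in BAP1. WDR82, a subunit of the SET1 histone methyltransferase complex, stood at 80.0 and 79.0 TPM in parental cells with the drug, 57.7 and 57.4 TPM in resistant cells and 95.5 and 91.8 TPM in DMSO. RAD54L2, a helicase-like ATPase of the SNF2 family, stood at 20.1 and 18.9 TPM in parental cells with the drug, 11.4 and 10.5 TPM in resistant cells and 14.9 and 13.3 TPM in DMSO. QRICH1, a transcription regulator of the unfolded protein response, stood at 56.5 and 58.2 TPM in parental cells with the drug, 35.3 and 36.7 TPM in resistant cells and 73.9 and 70.2 TPM in DMSO. As percentages of the 4 parental libraries, the resistant levels of the 6 ran from 45.5% (SETD2) to 68.2% (BAP1), with a median of 60.4%.

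Genes of RNA processing and translation made up 11 members, and their resistant levels ran from 40.2% of the parental mean in DALRD3 to 65.5% in RBM15B, with a median of 53.0%. ELP6, a subunit of the Elongator complex that modifies wobble bases of tRNA, stood at 47.2 and 47.8 TPM in parental cells with the drug, 28.8 and 26.0 TPM in resistant cells and 54.8 and 57.3 TPM in DMSO. RBM5, a splicing regulator of apoptosis genes, stood at 94.1 and 95.4 TPM in parental cells with the drug, 37.2 and 42.2 TPM in resistant cells and 87.1 and 88.5 TPM in DMSO. RBM6, its neighbour and paralogue, stood at 52.4 and 56.0 TPM in parental cells with the drug, 26.4 and 26.8 TPM in resistant cells and 59.4 and 67.1 TPM in DMSO. In resistant cells RBM5 and RBM6 were at 43.5% and 45.3% of their parental means, while ELP6 matched the group's median. IFRD2, a ribosome-binding protein, stood at 81.5 and 86.8 TPM in parental cells with the drug, 42.3 and 41.6 TPM in resistant cells and 103 and 116 TPM in DMSO. RRP9, a protein of the U3 small nucleolar particle, was at 55.4%, DHX30, an RNA helicase, at 57.2%, CCDC12, a spliceosome protein, at 55.0%, HEMK1, a methyltransferase of release factors, at 40.8%, and RBM15B, a part of the complex that writes N6-methyladenosine, at 65.5%. DALRD3, a partner in tRNA methylation, and WDR6 overlap each other on opposite strands, and no source used here says whether reads were counted by strand.

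The cell cycle and ubiquitin genes, 7 members, had the lowest median of the 6 roles, 45.4% of the parental mean. CDC25A, the phosphatase that activates cyclin-dependent kinases on entry into S phase, stood at 58.0 and 58.5 TPM in parental cells with the drug, 27.1 and 24.8 TPM in resistant cells and 81.6 and 74.4 TPM in DMSO. Its levels fell into 3 separate steps, DMSO highest and resistant lowest. KLHL18, an adaptor of cullin-3 ubiquitin ligases, stood at 45.4% of the parental mean in resistant cells, ARIH2, a ligase that works with cullin-5, at 45.9%, RNF123, another ubiquitin ligase, at 56.9%, and USP19, a deubiquitinase, at 65.1%. USP4 and TRAIP were the other two. RNF123 overlaps GMPPB on the opposite strand, so reads may be shared between them.

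Of the 11 signalling members, RHOA had by far the most RNA. RHOA, the small GTPase that controls actin contractility, stood at 402 and 402 TPM in parental cells with the drug, 242 and 245 TPM in resistant cells and 439 and 475 TPM in DMSO. NPRL2, a subunit of the GATOR1 complex that restrains mTORC1, stood at 12.8 and 13.8 TPM in parental cells with the drug, 6.71 and 8.18 TPM in resistant cells and 14.7 and 14.1 TPM in DMSO. Resistant and parental libraries did not overlap in either gene, at 56.6% and 53.7% of the parental mean. IP6K1, the paralogue of IP6K2, stood at 32.6 and 30.6 TPM in parental cells with the drug, 15.2 and 15.3 TPM in resistant cells and 26.0 and 25.9 TPM in DMSO. NISCH, the imidazoline-binding protein nischarin, stood at 47.0 and 49.8 TPM in parental cells with the drug, 32.9 and 34.3 TPM in resistant cells and 58.5 and 57.6 TPM in DMSO. PRKAR2A, a regulatory subunit of protein kinase A, was at 40.9% of the parental mean in resistant cells, MAPKAPK3, a kinase activated by p38, at 50.6%, TUSC2 at 56.0% and PTPN23, which sorts receptors in endosomes, at 59.9%. Over the 11, the median was 53.0%, from 34.9% (GNAI2) to 63.1% (NISCH).

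Metabolic enzymes and regulators made up 10 members, of which P4HTM was not tested: it was at 0 in 5 libraries and at 0.12 TPM in DMSO library B. IMPDH2, the rate-limiting enzyme of guanine nucleotide synthesis, stood at 154 and 156 TPM in parental cells with the drug, 88.5 and 86.2 TPM in resistant cells and 174 and 176 TPM in DMSO. GPX1, which reduces hydrogen peroxide with glutathione, stood at 88.7 and 92.0 TPM in parental cells with the drug, 43.0 and 45.1 TPM in resistant cells and 109.6 and 100.4 TPM in DMSO. SCAP, the escort of the SREBP transcription factors of cholesterol synthesis, stood at 39.7 and 39.7 TPM in parental cells with the drug, 26.0 and 26.1 TPM in resistant cells and 43.5 and 42.8 TPM in DMSO. IMPDH2 and GPX1 in resistant cells were at 52.9% and 45.1% of the parental mean, and SCAP at 62.9%. GMPPB, which makes the GDP-mannose used to glycosylate dystroglycan, stood at 16.1 and 15.9 TPM in parental cells with the drug, 6.22 and 6.15 TPM in resistant cells and 11.1 and 12.0 TPM in DMSO. PFKFB4, a regulator of glycolysis and the weakest of the 58 tested members, stood at 3.04 and 3.02 TPM in parental cells with the drug, 2.14 and 1.85 TPM in resistant cells and 3.89 and 2.85 TPM in DMSO. SLC25A20, the carnitine carrier of mitochondria, was at 50.3%, APEH, a peptidase, at 59.6%, and NME6, a nucleoside diphosphate kinase family member, at 63.8%.

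The cytoskeleton, membrane and cell-surface genes, 14 members, held both strongly and weakly lowered genes. MAP4, which stabilises microtubules, stood at 114 and 114 TPM in parental cells with the drug, 78.0 and 77.9 TPM in resistant cells and 116 and 112 TPM in DMSO. LAMB2, the laminin beta 2 chain of muscle basement membrane, stood at 50.6 and 55.9 TPM in parental cells with the drug, 29.5 and 35.3 TPM in resistant cells and 68.6 and 69.6 TPM in DMSO. SLC26A6, an anion exchanger, stood at 21.4 and 22.6 TPM in parental cells with the drug, 15.5 and 16.1 TPM in resistant cells and 37.1 and 40.8 TPM in DMSO. MAP4 stood at nearly the same level in both parental groups, while LAMB2 and SLC26A6 had the 3 groups in separate steps. NCKIPSD, an actin regulator, was at 39.8% of the parental mean in resistant cells, TMEM115, a Golgi protein, at 47.2%, TEX264, a receptor for autophagy of the endoplasmic reticulum, at 47.2%, SHISA5 at 48.3% and MON1A, an activator of the GTPase RAB7, at 51.1%. TWF2, which caps actin filaments, was at 62.9% and NICN1 at 63.1%. NBEAL2, untested, was between 0.52 and 0.83 TPM in all 6 libraries with the 3 groups overlapping, and it overlaps CCDC12 on the opposite strand. CCDC71, to which no role was assigned, was at 54.2%.

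**Figure D2:**
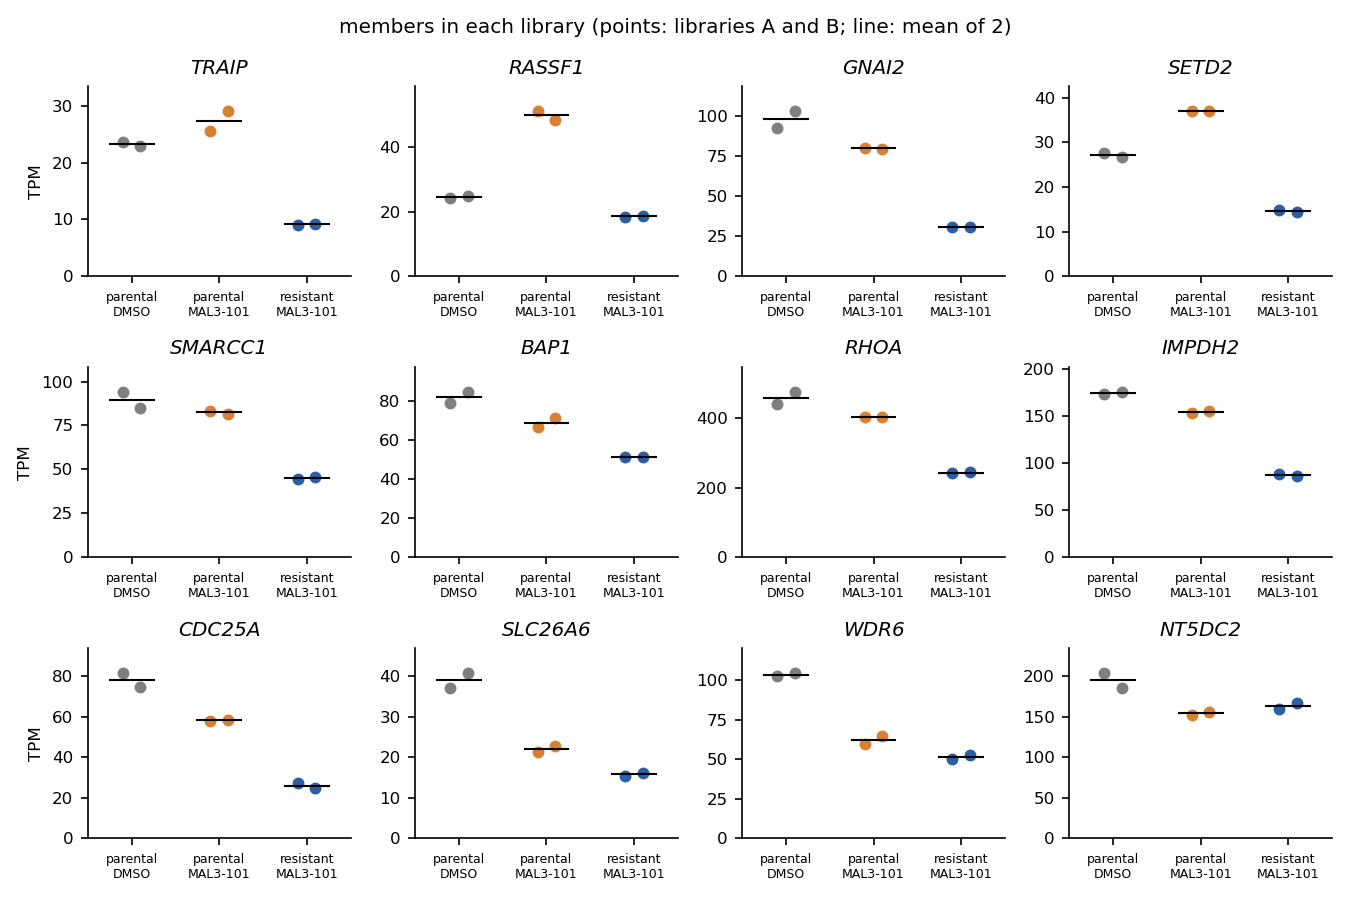
TPM of 12 members in each library (points, libraries A and B; lines, mean of 2 libraries; y axes start at 0). Resistant libraries lie below all parental ones in 11 panels, and in the NT5DC2 panel (159 and 166 TPM) they lie between the parental MAL3-101 and the DMSO libraries.

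In each of 4 stretches of the block the median difference was similar, but the centromeric end was weaker. In chromosome order the first 15 tested members (CCDC12 to NCKIPSD) had a median log2 fold change of -0.77 in resistant against parental cells with the drug, the next 15 (IP6K2 to TCTA) -0.82, the next 14 (NICN1 to TUSC2) -0.92 and the last 14 (RASSF1 to NT5DC2) -0.75. The same stretches stood at medians of 53.0%, 52.9%, 52.0% and 59.1% of the parental mean. Within a stretch, the SD of single members ran from 0.25 to 0.36. The last 5 members at the centromeric end were TWF2 (-0.46), WDR82 (-0.46), BAP1 (-0.41), NISCH (-0.51) and NT5DC2 (0.08). They stood at 62.9% to 93.4% of the parental mean, all above the upper quartile of the members. Spearman's rho of the fold change with gene order was 0.13 over the 58 members, and with the mean parental TPM it was 0.07; against DMSO the values were 0.14 and -0.14. Members on the plus strand had a median of -0.82 (n = 18) and those on the minus strand -0.77 (n = 35). All members of a comparison share the same libraries, so these are descriptions.

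Single genes varied around that level by more than the replicates did. The SD of the members' log2 fold changes was 0.32 with the drug and 0.29 against DMSO, where over all tested genes it was 0.67 in the first. Since members were chosen for lying low, the narrower spread is not read as evenness. In the first comparison the SD was 0.55 over the 46 non-members between CCDC12 and SMIM4. It was 0.54 over the 26 between GTDC2 and CCDC12. Neighbouring members differed by a median of 0.26 in the first comparison and 0.25 in the second. Libraries A and B differed by a median of 0.04 over the members in resistant cells, 0.04 in parental cells with the drug and 0.10 in DMSO. Thus USP4 (-1.37) lies between CCDC71 (-0.72) and GPX1 (-1.02), and NCKIPSD (-1.04) beside SLC26A6 (-0.46). The pair RHOA and TCTA, whose starts lie 447 bases apart on opposite strands, had -0.72 and -0.39.

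At the telomeric end the first 3 tested members were CCDC12 (-0.78), SETD2 (-1.28) and KLHL18 (-0.95). They do not adjoin the limit: 26 tested genes that are not members, with a median of -0.71, lie between GTDC2 and CCDC12. KLHL18 stood at 16.6 and 12.9 TPM in parental cells with the drug, 7.17 and 7.02 TPM in resistant cells and 15.1 and 17.9 TPM in DMSO. CCDC12 stood at 43.7 and 45.7 TPM in parental cells with the drug, 24.3 and 27.1 TPM in resistant cells and 47.4 and 49.9 TPM in DMSO. The 3 tested genes from the limit outwards were GTDC2 (-0.28), HIGD1A (-0.41) and ZBTB47 (-0.48). HIGD1A, a mitochondrial protein induced by hypoxia, stood at 90.3 and 90.3 TPM in parental cells with the drug, 71.2 and 64.5 TPM in resistant cells and 104 and 99.6 TPM in DMSO, while ZBTB47 was below 5 TPM in every library. At the centromeric end the members just inside were BAP1 (-0.41), NISCH (-0.51) and NT5DC2 (0.08), and the genes from the limit outwards were SMIM4 (-0.20), PBRM1 (-0.27) and GNL3 (-0.50). PBRM1, a SWI/SNF subunit, stood at 50.7 and 47.6 TPM in parental cells with the drug, 41.2 and 39.6 TPM in resistant cells and 52.0 and 50.4 TPM in DMSO. GNL3, a nucleolar GTPase, stood at 109 and 109 TPM in parental cells with the drug, 77.2 and 76.5 TPM in resistant cells and 117 and 122 TPM in DMSO. SMIM4, a mitochondrial protein, stood at 19.3 and 20.8 TPM in parental cells with the drug, 17.8 and 16.8 TPM in resistant cells and 28.1 and 33.9 TPM in DMSO. The 3 genes outside either limit thus had log2 fold changes of -0.20 to -0.50. GTDC2 stood at 0.89 and 0.78 TPM in parental cells with the drug, 0.65 and 0.39 TPM in resistant cells and 1.10 and 0.90 TPM in DMSO, and at such levels the pseudocount of 1 shrinks its fold change. At the centromeric limit the values of the genes inside and outside overlapped, so the differences show no step there. At the telomeric limit the genes directly inside are not named here, so no step is read there either.

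Tested genes inside the limits that are not members had similar medians but spread more widely. The SD of their log2 fold changes was 0.54 between GTDC2 and CCDC12 and 0.55 between CCDC12 and SMIM4, beside 0.32 for the members. The 26 between GTDC2 and CCDC12 had a median of -0.71, with 19 called lower and 1, ANO10, called higher. The 46 interspersed between CCDC12 and SMIM4 had a median of -0.72, with 34 called lower and 1, TREX1, called higher; both resistant libraries lay below all parental ones in 40 of the 46. Since the limits and the members were set on this comparison, these values too are descriptions. They show that the list of 60 leaves out genes that shared the difference and others that were not called lower.

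The rest of the short arm was lower as well, by less, and the long arm lay near the level of all tested genes. On the short arm the 145 tested genes telomeric of GTDC2 had a median of -0.42 (60% called lower), and the 79 centromeric of SMIM4 had a median of -0.44 (59.5%), beside 34.8% of all tested genes. The 375 genes of the long arm had a median of -0.15, with 40% called lower and 17.6% higher. Over all tested genes the median was -0.10, with 34.8% called lower and 21.3% higher. Without the members, the median of chromosome 3 was -0.30. The medians of the 23 chromosomes ran from -0.39 on chromosome 7 to 0.12 on chromosome 22, and chromosomes 5 (-0.34), 1 (-0.31) and 3 with its members (-0.34) were near the low end.

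**Figure D3:**
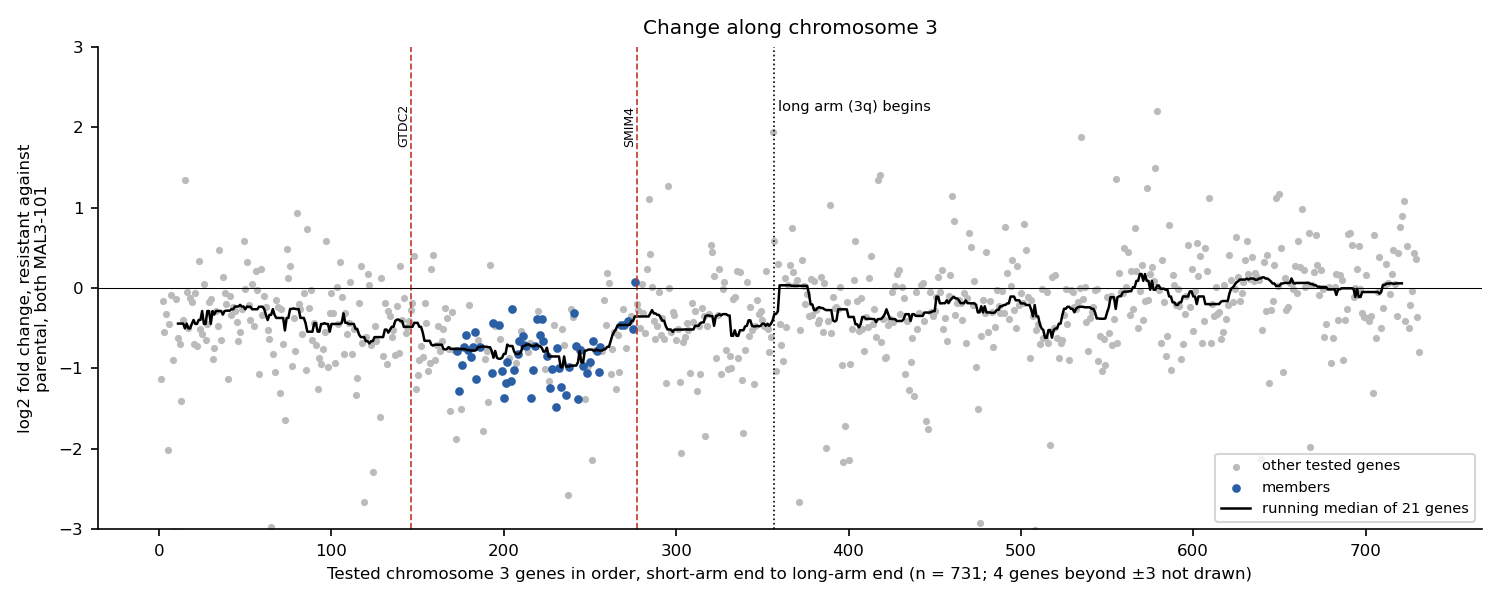
Log2 fold change of 731 tested chromosome 3 genes between resistant and parental cells, both with MAL3-101, in gene order from the short-arm to the long-arm end (blue, members; grey, other genes; line, running median of 21 genes; dashed lines, the limits GTDC2 and SMIM4). The running median sinks below its short-arm surroundings between the limits, where the members' median is -0.78, and lies nearer to 0 on the long arm, whose median is -0.15.

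The response of the members to the drug itself was tested in parental cells, MAL3-101 against DMSO, a comparison the choice of members did not use, though it shares the parental libraries with those it did. Here members went both ways, while a common direction between resistant and parental cells was the reason they were chosen. The SD of their log2 fold changes was 0.30 here. It was 0.32 for resistant against parental cells with the drug and 0.29 against DMSO. By limma at an adjusted p under 0.05, 18 of 58 members fell (31.0%, beside 18.2% of all tested genes) and 6 rose (10.3%, beside 22.6%), and 34 did not pass, where 40.8% of all tested genes were called either way. The median over the members was -0.12 and over all tested genes 0.02. The fits share 1 estimate of the spread, and the calls depended on the parental MAL3-101 libraries. Without either of these, fewer members were called, and so were fewer of all tested genes. The members' median was -0.127 without library A and -0.116 without library B.

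RASSF1 rose most, from 24.34 and 25 TPM in DMSO to 51.3 and 48.5 TPM with the drug, a log2 fold change of 0.99 ± 0.07 (SE; limma, adjusted p = 9.2e-05). Its resistant libraries, also with the drug, were at 75.3% of the DMSO mean. SETD2 rose by 0.43 ± 0.07 (limma, adjusted p = 0.003), and its resistant level was 53.7% of the DMSO mean. RASSF1 and SETD2 were called in each of the 14 alternative fits. RAD54L2 rose by 0.44 ± 0.09 (limma, adjusted p = 0.009), GMPPB by 0.44 ± 0.09 (0.008), IP6K1 by 0.28 ± 0.07 (0.017) and IP6K2 by 0.24 ± 0.05 (0.010). Without parental MAL3-101 library A these 4 had limma adjusted p-values of 0.078, 0.069, 0.134 and 0.061. Without library B, those of GMPPB, IP6K1 and IP6K2 were 0.060, 0.061 and 0.083. The 2 inositol hexakisphosphate kinases lie far apart in the block and share this direction.

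SLC26A6 fell most, from 37.1 and 40.8 TPM in DMSO to 21.4 and 22.6 TPM with the drug (-0.79 ± 0.08; limma, adjusted p = 4.3e-04). HYAL2 fell by 0.77 ± 0.08 (limma, adjusted p = 6.8e-04) and WDR6 by 0.73 ± 0.06 (2.0e-04). In these 3 the parental drug libraries lay nearer to the resistant ones than to DMSO. CDC25A fell by 0.41 ± 0.07 (limma, adjusted p = 0.004) and IFRD2 by 0.38 ± 0.07 (0.005). SLC26A6, HYAL2, WDR6, CDC25A, QRICH1 (-0.32) and NT5DC2 (-0.33) were called lower in each of the 14 alternative fits. IFRD2 was lost without parental MAL3-101 library A (limma, adjusted p = 0.052), and so were LAMB2 (-0.37; 0.118), TWF2 (-0.35; 0.053), BAP1 (-0.25; 0.121) and NISCH (-0.26; 0.102).

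The remaining 7 calls were less firm. They were DAG1 (-0.34), GNAI2 (-0.29), WDR82 (-0.23), ELP6 (-0.23), GPX1 (-0.21), RHOA (-0.18) and IMPDH2 (-0.18), with limma adjusted p-values from 0.009 to 0.044. Leaving out either parental MAL3-101 library ended each of these calls. That of ELP6 also ended without DMSO library B, and those of IMPDH2, GPX1, RHOA and DAG1 without either resistant library or with only the 4 libraries compared in the fit. With no filter on low genes the calls of ELP6, GPX1, RHOA, DAG1 and LAMB2 ended. The highest limma adjusted p-values over the alternative fits ran from 0.069 for WDR82 to 0.175 for DAG1. Among the members that did not pass were MAP4 (0.00 ± 0.05), SMARCC1 (-0.11 ± 0.06), SCAP (-0.12 ± 0.06), NPRL2 (-0.11 ± 0.11), RBM5 (0.11 ± 0.07), RBM6 (-0.22 ± 0.07) and TRAIP (0.22 ± 0.09).

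**Figure D4:**
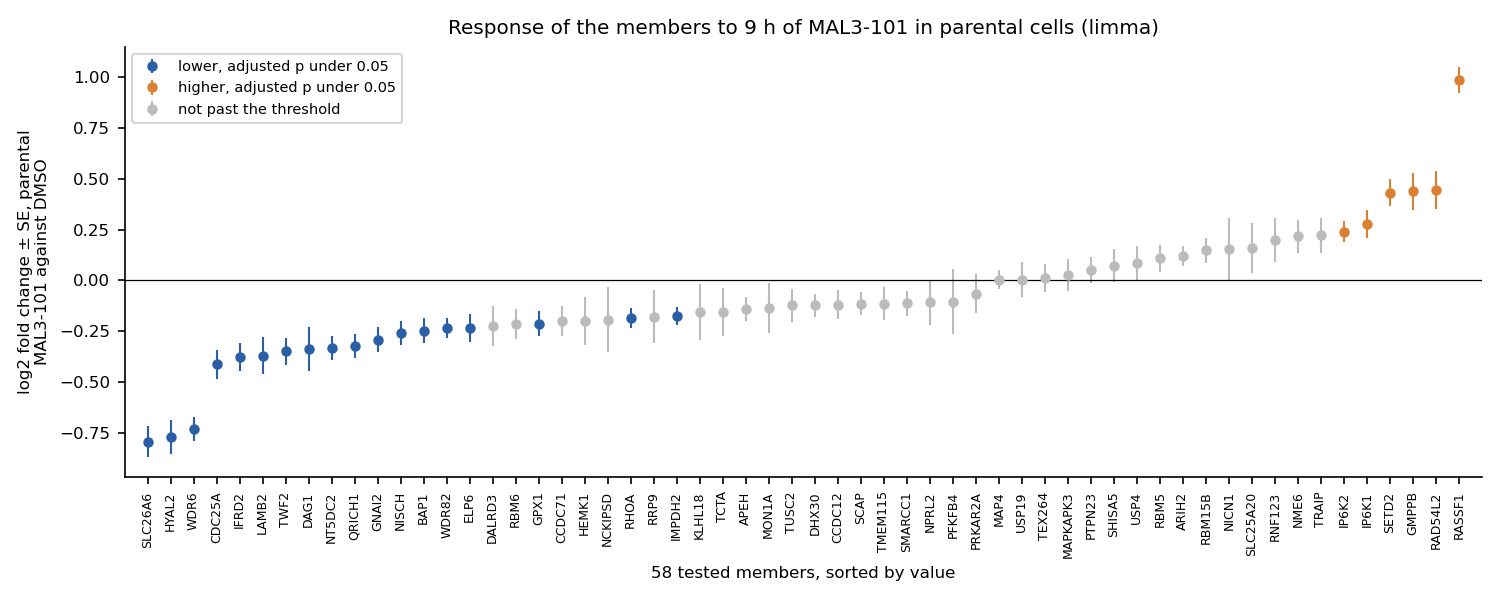
Log2 fold change ± SE of the 58 tested members in parental cells, 9 h of MAL3-101 against DMSO, sorted by value (blue, lower and orange, higher at a limma adjusted p under 0.05; grey, not past it). RASSF1 stands alone at 0.99, SLC26A6, HYAL2 and WDR6 at -0.73 to -0.79, and 34 members did not pass.

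By role, the drug response in parental cells was mixed. Of the 6 chromatin genes 3 fell and 2 rose, of the 11 RNA and translation genes 3 fell, of the 7 cell cycle and ubiquitin genes 1 fell, and of the 11 signalling genes 3 fell and 3 rose. Of the 9 tested metabolic genes 3 fell and 1 rose, and of the 13 tested cytoskeleton and surface genes 5 fell. Over all tested genes, 18.2% fell and 22.6% rose. Each role holds few members, and many of these calls ended without a parental MAL3-101 library, so no role is set apart. The 2 parental groups stood in either order from member to member. The resistant libraries were lowest in 57 of the 58, as the choice of members favoured.

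Members that share a start region with a gene on the opposite strand were compared with that gene. For 6 members such a partner start lay within 1000 bases. CISH, an inhibitor of cytokine signalling whose start lies 103 bases from that of MAPKAPK3, stood at 14.6 and 11.9 TPM in DMSO, 22.1 and 21.7 TPM in parental cells with the drug and 10.5 and 10.9 TPM in resistant cells. It rose with the drug in parental cells by 0.69 ± 0.11 (limma, adjusted p = 0.003), whereas MAPKAPK3 had 0.03 ± 0.08 (adjusted p = 0.814); the difference between them was not tested. MST1, 83 bases from the start of RNF123, fell by 0.50 ± 0.12 in the same comparison (limma, adjusted p = 0.014), where RNF123 had 0.20 ± 0.11 (adjusted p = 0.186). Between resistant and parental cells with the drug all 6 pairs had both genes lower: MAPKAPK3 -0.93 and CISH -0.97, RNF123 -0.85 and MST1 -1.01, KLHL18 -0.95 and KIF9 -1.51, NPRL2 -0.77 and CYB561D2 -0.76, RRP9 -0.73 and PARP3 -0.78, RHOA -0.72 and TCTA -0.39. The members, TCTA among them, were chosen for this difference, and the other partners lie inside limits set on it. Of the 46 tested non-members between CCDC12 and SMIM4, 34 were called lower by limma. The values of the pairs are therefore descriptions. The MAPKAPK3 and CISH genes overlap, and reads may be shared between them. In all, 14 members overlap a gene on the opposite strand.

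Genes elsewhere that work with the members were set beside them, using 22 lists of paralogues, complex subunits and pathway genes. Their 125 tested genes lie outside the block, so here resistant against parental cells could be tested. The lists were, however, drawn up with earlier results of these data known. GTDC2, listed with the dystroglycan genes, is not counted among them because it sets a limit of the block, and PBRM1, which is counted, lies just beyond SMIM4. With MAL3-101 in both, 36 were called lower by limma (28.8%, beside 34.8% of all tested genes) and 43 higher (34.4%, beside 21.3%), 46 did not pass, and the median was 0.03. Over the alternative fits 26 to 42 were lower and 30 to 58 higher, the first and last of these with upper-quartile scaling, under which 28.0% of all tested genes were lower and 28.6% higher. These partners stood around 0, as the plot of members, neighbours and partners shows. The members' -0.78 is the difference they were chosen for, so the gap between the sets is a description.

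All 5 tested partners of ELP6 in Elongator were higher in resistant cells, by a median of 0.28, with IKBKAP, the scaffold subunit, at 0.68 ± 0.06 (limma, adjusted p = 1.3e-04); over the alternative fits 3 to 5 of them were called. Of 17 partners of SMARCC1 in SWI/SNF, 6 were lower and 6 higher, among them ARID1A at -0.77 ± 0.06 (limma, adjusted p = 6.6e-05) and SMARCA4, the ATPase, at 0.38 ± 0.05 (adjusted p = 6.6e-04). With upper-quartile scaling the SWI/SNF split was 3 lower and 9 higher. None of the 5 other methyltransferases listed for lysine 36 of histone H3 was called by limma. Of 9 partners of BAP1, 3 were lower and 1 higher, and of 8 partners of WDR82 in the SET1 complex, 1 was lower and 3 higher. With upper-quartile scaling these became 1 and 4, and 0 and 4.

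Among the lists with several tested partners, those of LAMB2, MAPKAPK3 and the inositol kinases had mostly lower calls. Of 6 other laminin chains 4 were lower (3 with either scaling), LAMA5 at -1.62 ± 0.18 and LAMC1 at -1.56 ± 0.06 (limma, adjusted p = 3.2e-04 and 3.6e-06), and LAMA2 was higher at 0.56 ± 0.08 (adjusted p = 9.2e-04). Both other MAPKAP kinases were lower, MAPKAPK5 at -0.86 ± 0.07 (limma, adjusted p = 8.3e-05), but only 1 was called with upper-quartile scaling. IP6K3 and PPIP5K1, 2 of 3 other inositol pyrophosphate kinases, were lower. Lists in which partners were higher included the Hippo pathway, where 4 of 8 partners of RASSF1 were higher and 1 lower (6 and 1 with upper-quartile scaling), RASSF5 at 1.49 ± 0.16 (limma, adjusted p = 2.7e-04). For RHOA, ROCK1 was higher at 0.57 ± 0.08 (limma, adjusted p = 8.3e-04) and RHOB at 0.32 ± 0.04 (adjusted p = 7.1e-04), and ROCK2 was lower at -0.23 ± 0.08 (adjusted p = 0.048), a call lost with either scaling. For SCAP, 3 of 9 genes of the SREBP pathway were higher and none lower, INSIG1 at 0.53 ± 0.08 (limma, adjusted p = 0.001), and 5 with either scaling.

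Among the other lists, some were split and 4 held a single call. Of 15 tested partners of DAG1 and GMPPB in the dystroglycan complex and its glycosylation, 4 were lower and 4 higher (3 and 5 with either scaling), with SGCD, a sarcoglycan, at 1.32 (limma, adjusted p = 1.7e-04). Of 6 genes around CDC25A, 2 were lower and 3 higher, with CCNE1, cyclin E1, at 0.89 ± 0.15 (limma, adjusted p = 0.002). Of 4 tested glutathione peroxidases, GPX7 was lower at -3.11 ± 0.15 (limma, adjusted p = 1.1e-05) and GPX4 higher at 0.38 ± 0.05 (adjusted p = 4.2e-04). Of 5 other protein kinase A subunits 2 were lower and 2 higher, and of 7 GATOR genes 3 were lower and 2 higher. RBM10, the third of the RBM5 family, was lower at -0.31 ± 0.05 (limma, adjusted p = 0.002). Of the USP4 paralogues USP15 was lower and USP11 higher. The only other bifunctional PFKFB enzyme tested, PFKFB3, was lower at -0.76 ± 0.09 (limma, adjusted p = 3.2e-04). GNAI3 at 0.22 ± 0.06 (limma, adjusted p = 0.018) and GMPS at 0.35 ± 0.07 (adjusted p = 0.005) were higher, and GNAI1 and IMPDH1, the paralogues of GNAI2 and IMPDH2, did not pass. Of 5 tubulin-binding proteins related to MAP4, 1 was lower and 3 higher.

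**Figure D5:**
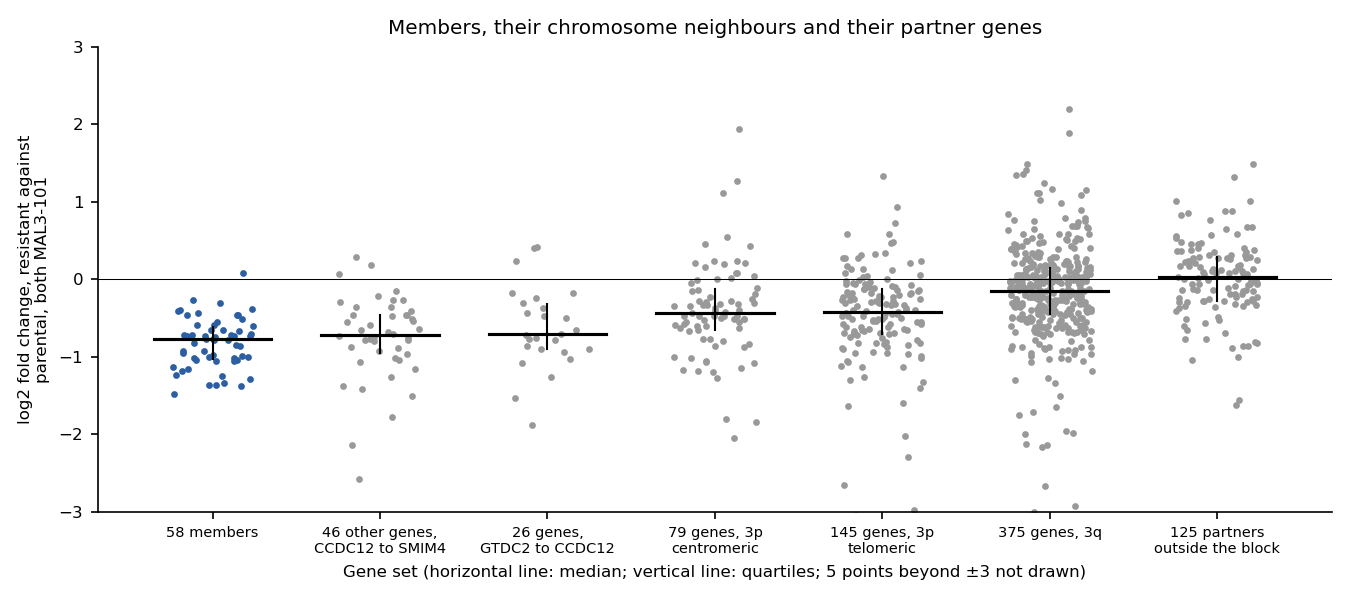
Log2 fold change between resistant and parental cells, both with MAL3-101, of single genes (points) in 7 sets, with medians (horizontal lines) and quartiles (vertical lines). The members (-0.78) and the other genes between GTDC2 and SMIM4 (-0.71 and -0.72) lie lowest, the rest of the short arm lies at -0.44 and -0.42, the long arm at -0.15 and the 125 partner genes at 0.03. The members and the limits were set on this comparison.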

How the data were processed

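RNA of 6 libraries was sequenced as paired ends after TruSeq preparation, and the deposited values are TPM per gene name. The submitters' processing notes name the tools RSEM and DESeq and build hg19. Of the aligner, the versions, the annotation and the strand setting, none is named there. DESeq is not used here. Each library sums to 1000000 TPM, so read depth is unknown.

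TPM were fitted as log2(TPM + 1) with limma 3.58.1 (trend, all 6 libraries in 3 groups, residual degrees of freedom 3, R 4.3.3) over the 15148 genes with a mean of 1 TPM in at least 1 group, with Benjamini-Hochberg adjustment over all of them and a threshold of 0.05. The median SE of a fold change was 0.105. The script was tested on simulated data. Gene order, neighbours and promoters came from RefSeq on GRCh38.p14, which matched 13099 tested genes (86.5%) and all 60 members by name; coordinates were not converted. Summaries used Python 3.11.15, numpy 2.4.6, pandas 2.3.3 and scipy 1.17.1, and figures matplotlib 3.10.9.

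The members and gene lists were chosen with earlier results of these data known. Genes named with values in every library were the 5 members with the largest and the 5 with the smallest difference with the drug. So were 20 members picked by function and the members with the 5 largest drug responses each way. The outermost 3 members and the 3 genes from the limit outwards at each end were named too. Other members were named to account for all 60. From most partner lists some genes were named, among them the gene with the largest change. For the other lists only counts were given. One marker and 1 partner name were not found. Alternatives were other pseudocounts (0.1, 0.5), filters (none, 5 TPM) and scalings, only the libraries compared, a block for the library letter and each library left out.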

Additional observations from a re-analysis of the deposited data

How the results depend on the processing

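In resistant against parental cells, both with the drug, the members' median log2 fold change (-0.775) was -0.828 and -0.805 with pseudocounts of 0.1 and 0.5, -0.669 with median-ratio scaling, -0.655 with upper-quartile scaling and -0.814 to -0.770 when 1 library was left out. Its SD (0.323) was 0.338 with a pseudocount of 0.1, 0.355 with no filter and 0.319 to 0.333 with 1 library left out. Against DMSO the median (-0.903) was -0.958 with a pseudocount of 0.1, -0.830 and -0.840 with the scalings and -0.937 to -0.879 with 1 library left out, and the SD (0.295) was 0.330 with no filter and 0.275 to 0.332 with 1 library left out. Calls of members in these comparisons are not counted here, since the members were chosen for the difference. For the drug in parental cells the median (-0.124) was -0.131 with a pseudocount of 0.1 and with a filter of 5 TPM, -0.157 and -0.180 with the scalings and -0.145 to -0.116 with 1 library left out, and the SD (0.297) was 0.290 to 0.316. There, 6 to 21 members fell and 2 to 8 rose with 1 library left out, the fewest without parental MAL3-101 library A. The cause of these moves was not tested; leaving out a library also leaves fewer samples. Directions reversed only in this comparison, for members that did not pass. MAP4 was at -0.054 with upper-quartile scaling. With 1 library left out the ranges were, reversed without parental MAL3-101 library B, -0.324 to 0.011 for KLHL18 and -0.418 to 0.027 for NCKIPSD; reversed without DMSO library A, -0.037 to 0.180 for SHISA5, -0.279 to 0.066 for PFKFB4 and -0.181 to 0.049 for PRKAR2A; and reversed without DMSO library B, -0.120 to 0.128 for USP19, -0.032 to 0.335 for NICN1 and -0.402 to 0.045 for RRP9. Where a group was left with 1 library, that library was assumed to vary like the other groups.

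Libraries with the same letter showed little shared deviation over 15148 genes. The correlations of their deviations from the group means were 0.03, -0.02 and -0.02. Such values cannot tell whether libraries with the same letter were handled together, and no label says so. With the letter as a replicate block, the members' median stayed at -0.775 with the drug, 19 members fell and 6 rose with the drug in parental cells, and 8381, 7492 and 5942 of all genes were called in the 3 comparisons instead of 8495, 7662 and 6181.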
